A study of Ambystoma mexicanum with 44 samples.

Results

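The genes described here encode subunits of the mitochondrial respiratory chain, measured in axolotl skin after limb amputation and flank wounding. They were chosen by name: every probe set whose gene symbol marks a subunit of complex I (NDUFA, NDUFB, NDUFC, NDUFS or NDUFV with a number), complex II (SDHA to SDHD), complex III (UQCR) or complex IV (COX4 to COX8) was taken, and a gene with several probe sets was represented by the one with the highest mean over the 44 arrays. This gave 51 of the 8639 genes with a symbol, of which 33 carry complex I names, 4 belong to complex II, 5 to complex III and 9 carry complex IV names. The rule also covered names beginning with ATP5, which mark ATP synthase, but it matched no probe set, and ATP synthase is not analysed here. The name rule uses no measured value except for the choice among probe sets of a gene. The genes were nevertheless chosen with earlier results of these data known.

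Complexes I and II feed electrons from NADH and succinate into ubiquinone, complex III passes them to cytochrome c, and complex IV hands them to oxygen. Complexes I, III and IV pump protons as they do so, and the resulting gradient drives ATP synthase, whereas complex II pumps none and is at the same time an enzyme of the citric acid cycle. All genes described here lie in the nucleus, and the mitochondrial genome supplies further core subunits of complexes I, III and IV. Skin epidermis of a healing wound is a sheet of migrating and then thickening epithelium, in which the balance between glycolysis and respiration is of interest because an axolotl stump with its nerves regrows a limb and a denervated stump does not.

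The animals were aquatic axolotls (Ambystoma mexicanum). In the denervated limb series the forelimb was cut off just above the elbow and the brachial nerves to the limb were severed, and epidermis was taken at days 1, 3 and 7. In the innervated limb series the nerves were left intact, with samples at days 0, 1, 3 and 7, and in the flank series a full thickness punch wound was made in the side of the body, with samples on the same days. Each of these 11 groups held 4 arrays, each array held RNA of 1 animal from 2 pooled collections, and what was collected was epidermis with whatever cells clung to it. Both limb series were set against the same 4 arrays of uninjured limb skin (day 0), so their changes share the error of those arrays, and they are given side by side without a measure of likeness.

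Values are log2 expression levels as deposited, from 2.41 to 15.04 in the whole table, with array medians between 5.61 and 5.73. Differences between groups are log2 differences ± SE from a limma fit over all 44 arrays and 20035 probe sets. A gene rose or fell if its Benjamini-Hochberg adjusted p over those probe sets was under 0.05. Because brightness depends on the probes, the levels of different genes are not compared. The median SE of a difference was 0.0713 for the 51 genes and 0.123 for all probe sets, so smaller changes could be called among the subunits than among most genes. NDUFA8, NDUFA11, NDUFB1, NDUFB3, NDUFB11 and UQCRH had mean signals under 8, and their differences from day 0 were not called on any day. Of 24 epidermal marker genes 17 were measured, with an array mean between 9.70 and 10.56. KRT8, EPCAM, CDH1, JUP and PERP had group means above 12 throughout, while ITGB4, at most 5.62, and GRHL2, at most 5.82, lay about the array median. The markers moved both ways: at innervated day 7, 8 of 17 rose, among them COL17A1 (1.62) and DSC2 (1.13), and KRT18, GRHL3 and ITGB4 fell. Of all probe sets 12.8% rose and 13.8% fell in that comparison.

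Respiratory chain transcripts moved little, and most that moved fell. At day 7, 20 of the 51 genes fell and 0 rose in the denervated limb, where 13.9% of all probe sets fell and 13.1% rose. In the innervated limb 25 fell and 1 rose, where 13.8% of all probe sets fell and 12.8% rose. In the flank 9 fell and 1 rose, beside 12.2% and 11.5% of all probe sets. The sizes were small, with a median difference of −0.145 over the 51 genes in the denervated limb, −0.162 in the innervated limb and −0.072 in the flank. Brighter probe sets were called in larger shares. Among the 1125 probe sets at or above the genes' median level of 10.94, 24.9% fell and 25.1% rose at day 7 in the denervated limb, 24.8% fell and 27.1% rose in the innervated limb, and 17.7% fell and 27.5% rose in the flank. Of the 51 subunits, which include dimmer genes, 39.2%, 49.0% and 17.6% fell in the same order of series, and these shares were not tested against each other. When only the arrays of the groups compared were fitted, 12 fell at day 7 in the denervated limb, 13 in the innervated limb and 4 in the flank. Shares of all probe sets were not counted under that fit, and the shares above do not apply to it. Day 7 group means were below day 0 for 47 of the 51 genes in the denervated limb, 45 in the innervated limb and 36 in the flank. The same held for 53.9%, 54.9% and 50.9% of all probe sets.

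On the earlier days fewer genes fell in the limb series. At day 1, 14 genes fell and 2 rose in the denervated limb (20.1% and 14.1% of all probe sets), 16 fell and 3 rose in the innervated limb (21.2% and 14.7%), and 12 fell and 1 rose in the flank (21.3% and 20.0%). At day 3, 6 fell and 3 rose in the denervated limb (14.1% and 12.4%), 13 fell and 0 rose in the innervated limb (13.4% and 12.5%), and 7 fell and 5 rose in the flank (14.8% and 12.6%). Of the bright probe sets 28.3%, 30.2% and 25.7% fell at day 1 and 20.3%, 20.7% and 17.4% at day 3 in the same order of series. Of the subunits 27.5%, 31.4% and 23.5% fell at day 1 and 11.8%, 25.5% and 13.7% at day 3. When only the groups compared were fitted, 5, 11 and 3 subunits were called at day 1 and 2, 8 and 5 at day 3, again without a share of all probe sets under that fit. Over the 11 groups 36 of the 51 genes varied by limma's moderated F test, beside 60.8% of all probe sets, and the median gap between a gene's highest and lowest group mean was 0.30. Innervated day 7 was the lowest group for 15 genes and denervated day 7 for 9, and uninjured limb skin was the highest for 17. Across the 9 comparisons with day 0, 13 genes fell in at least 5, 15 fell in none and 10 were never called. These counts, and those of lowest and highest groups, were made for the 51 genes only, without a share over all probe sets.

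**Figure D1:**
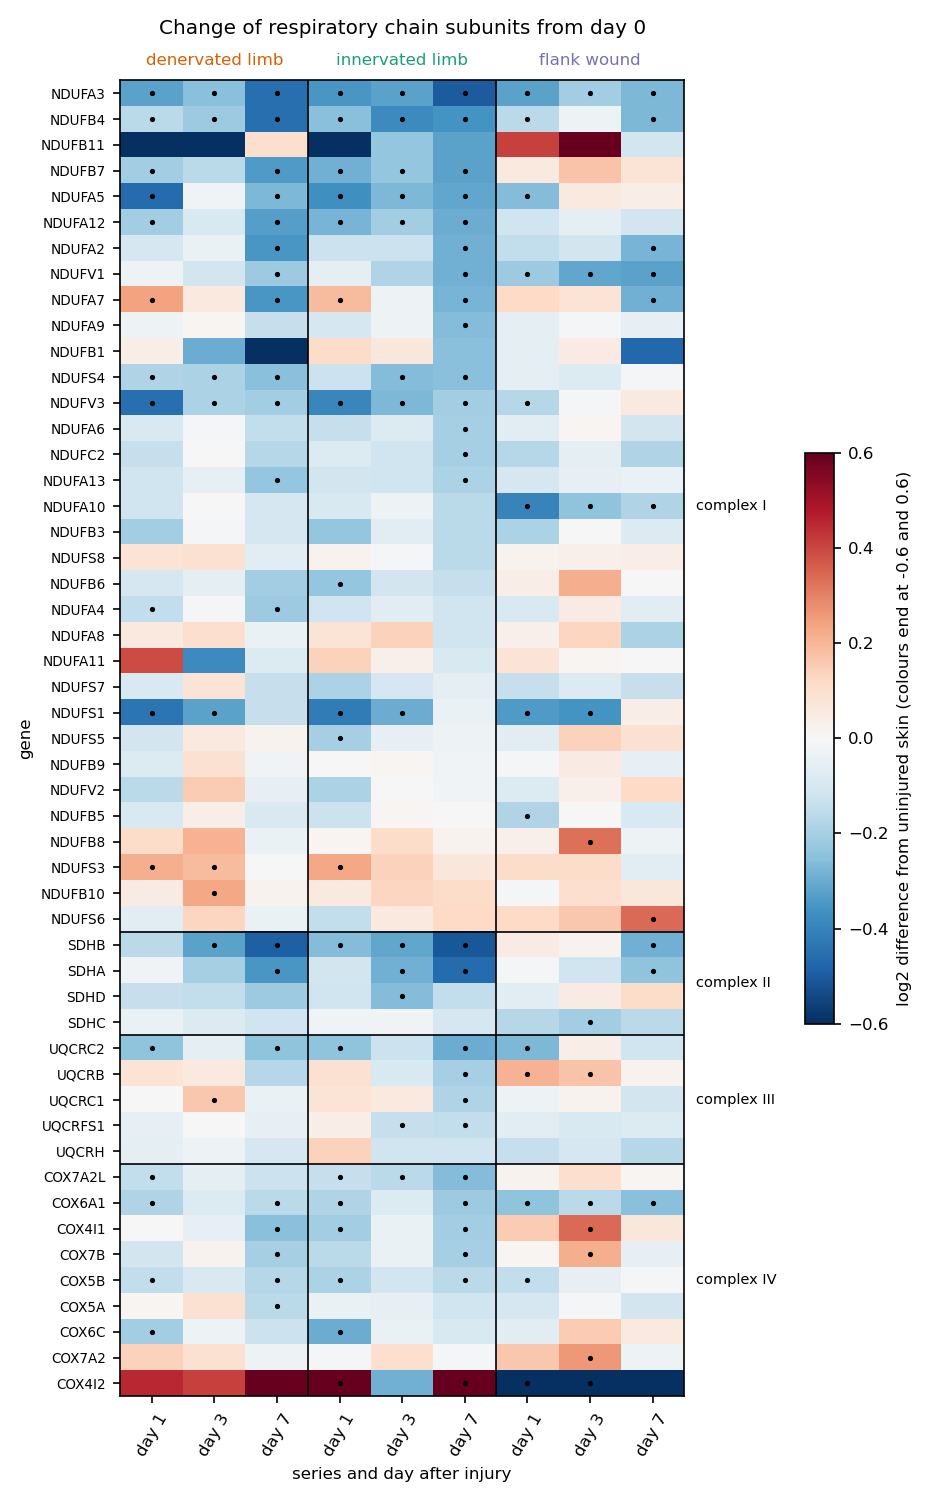
Log2 difference of each of the 51 genes from uninjured skin (rows, grouped by complex) in the denervated limb, innervated limb and flank at days 1, 3 and 7 (columns). Blue is lower and red is higher than day 0, colours end at −0.6 and 0.6, and black dots mark genes called at an adjusted p under 0.05; NDUFA3 carries a dot in all 9 columns, while dim genes such as NDUFB11 show strong colours and no dot.

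**Figure D2:**
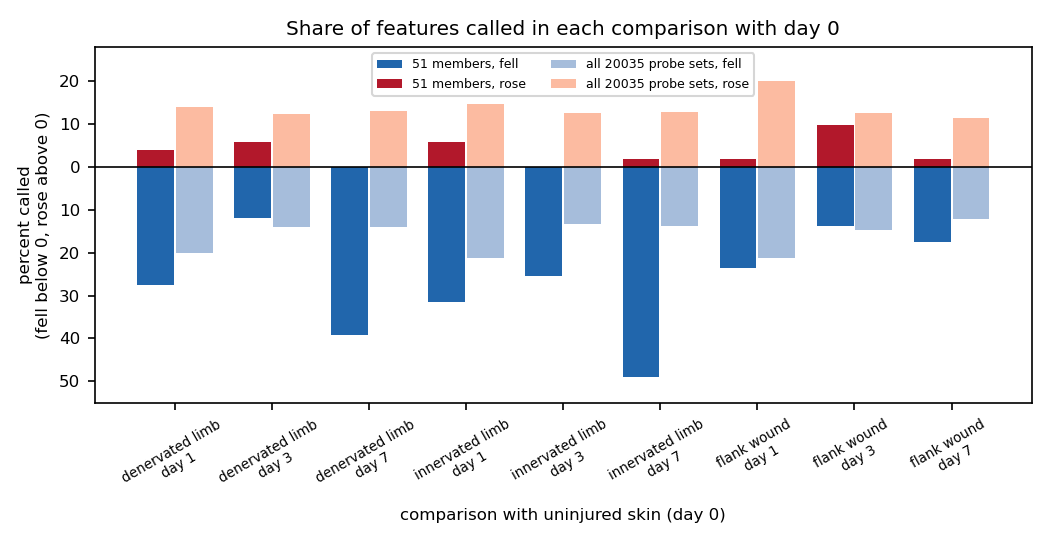
Percent of the 51 subunit genes (dark bars) and of all 20035 probe sets (pale bars) that fell (below 0) or rose (above 0) in each comparison with uninjured skin. The widest gaps between dark and pale bars below 0 are at day 7 of the limb series, where 20 and 25 of the 51 genes fell.

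Other cells changed along with these genes. Of 11 measured myeloid genes (of 19 named) 9 rose at day 7 in the denervated limb, 7 in the innervated limb and 8 in the flank, beside 13.1%, 12.8% and 11.5% of all probe sets. Their mean lay between 8.48 and 8.60 on denervated day 7 arrays and between 7.73 and 8.27 on innervated day 7 arrays, against 6.74 to 7.17 in uninjured limb skin. On flank day 7 arrays it lay between 7.76 and 8.14, against 6.65 to 6.90 in uninjured flank skin. Of 26 measured skeletal muscle genes (of 36 named) 5 fell at day 7 in each limb series and 16 in the flank, beside 13.9%, 13.8% and 12.2% of all probe sets. Their mean lay between 4.84 and 4.99 on denervated and between 4.93 and 4.98 on innervated day 7 arrays, against 5.25 to 7.79 in uninjured limb skin, and between 5.59 and 6.08 at flank day 7, against 6.57 to 9.35 at flank day 0. Of 4 measured red cell genes (of 11 named) RHAG, ALAS2 and TAL1 rose at day 1 in both limb series and SLC4A1 was not called. TAL1 and SLC4A1 had group means of at most 4 and 4.11, below every array median. Of all probe sets 14.1% rose at day 1 in the denervated and 14.7% in the innervated limb. In the flank 0 of the 4 were called at day 1, where 20.0% of all probe sets rose and 21.3% fell. RHAG and ALAS2 rose at flank day 3 (0.96 and 1.24), beside 12.6% of all probe sets. Both fell at innervated day 7 (−0.97 and −1.59, adjusted p = 0.0486 and 0.00485), beside 13.8% of all probe sets. No red cell gene was called at day 7 in the denervated limb or the flank. Array means of the 4 at day 1 were 6.44 to 6.84 in the denervated limb and 6.21 to 7.36 in the innervated limb, against 5.30 to 5.94 at day 0. In such bulk samples fewer cells of a type and less RNA per cell cannot be told apart, and the part of these cells in the changes of the subunits was not tested.

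Complex I, the NADH dehydrogenase, has core subunits that carry the redox centres and many accessory subunits around them. Of 26 accessory subunits 10 fell at day 7 in the denervated limb, 13 in the innervated limb and 5 in the flank, beside 13.9%, 13.8% and 12.2% of all probe sets. Of the 6 core subunits measured, 1 fell in each series at day 7, and neither this nor the flank count is far from those shares. NDUFA3, a small accessory subunit of the membrane arm, fell in all 9 comparisons. Its arrays read 11.79, 11.78, 11.76 and 11.76 at denervated day 7 and 11.78, 11.60, 11.79 and 11.74 at innervated day 7, against 12.19, 12.20, 12.33 and 12.19 in uninjured limb skin. No limb array of day 1, 3 or 7 reached the lowest day 0 array. Its differences at day 7 were −0.45 ± 0.067 in the denervated limb (adjusted p = 1.05e-06), −0.50 ± 0.067 in the innervated limb (adjusted p = 2.07e-07, a change of −29.3%) and −0.27 ± 0.067 in the flank (adjusted p = 0.00201). The weakest of the 9 calls was flank day 3 (−0.21, adjusted p = 0.0195), which was lost without flank day 0 replicate 1 or 3 or flank day 3 replicate 2 or 4 (differences of −0.18 to −0.19, adjusted p = 0.0505 to 0.064).

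NDUFB4, another accessory subunit of the membrane arm, read 11.52, 11.46, 11.54 and 11.45 at denervated day 7 and 11.64, 11.59, 11.58 and 11.49 at innervated day 7, against 12.04, 11.96, 11.92 and 11.83 at limb day 0. The day 7 arrays of both limb series lay below every day 0 array. It fell by 0.45 ± 0.060 in the denervated limb and by 0.36 ± 0.060 in the innervated limb (adjusted p = 1.88e-07 and 8.85e-06), and by 0.27 ± 0.060 in the flank (adjusted p = 0.000656). In the flank it read 11.75, 11.86, 11.71 and 11.78 at day 1, below every day 0 array (−0.16 ± 0.060, adjusted p = 0.0303), a call lost without flank day 0 replicate 1 or flank day 1 replicate 1 or 3 (adjusted p = 0.0647 to 0.0931). Flank day 3 arrays read 11.89, 11.91, 11.97 and 11.86, against 11.96, 11.93, 11.93 and 11.92 at day 0, and the day 3 difference of −0.03 was not called.

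NDUFA7, an accessory subunit of the peripheral arm, was higher at day 1 and lower at day 7 than in uninjured limb skin. At day 1 it read 10.83, 10.66, 10.68 and 10.74 in the denervated limb and 10.60, 10.71, 10.70 and 10.69 in the innervated limb, against 10.61, 10.48, 10.36 and 10.48 at day 0. At day 7 it read 10.18, 10.13, 10.10 and 10.13 in the denervated limb and 10.25, 10.13, 10.40 and 10.03 in the innervated limb. Denervated day 1 lay wholly above day 0 and denervated day 7 wholly below it, while innervated day 1 overlapped day 0 through 1 array, and innervated day 7 overlapped it likewise. The day 1 rises were 0.24 ± 0.077 in the denervated limb (adjusted p = 0.0114) and 0.19 ± 0.077 in the innervated limb (adjusted p = 0.0483). The denervated call was lost without limb day 0 replicate 3 (0.20, adjusted p = 0.0554). The innervated call was lost without limb day 0 replicate 2, 3 or 4 or day 1 replicate 2, 3 or 4 (0.15 to 0.19, adjusted p = 0.079 to 0.164). The day 7 falls were −0.35, −0.28 and −0.29 in the denervated limb, innervated limb and flank, with adjusted p of 0.000518, 0.00498 and 0.00358, and they held without any 1 array.

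Among other accessory subunits, NDUFA12 fell at day 7 by 0.33 ± 0.061 in the denervated and by 0.30 ± 0.061 in the innervated limb (adjusted p = 4.43e-05 and 0.000183), and differed by −0.11 in the flank, which was not called. NDUFB7 fell at day 7 by 0.34 ± 0.073 in the denervated and by 0.32 ± 0.073 in the innervated limb, and differed by 0.08 in the flank, which was not called. A second NDUFB7 probe set, with a mean signal of 9.6, fell at innervated day 7 (−0.31, adjusted p = 0.0114). At denervated day 7 it was not called (−0.22, adjusted p = 0.0822), and at flank day 1 it rose (0.27, adjusted p = 0.0201). NDUFA2 fell in all 3 series at day 7, by 0.35, 0.29 and 0.28. NDUFS4, an accessory subunit whose loss in people and mice causes a Leigh-type brain disease, fell by 0.25 in both limb series at day 7 and stood at −0.01 in the flank. Of these genes, NDUFB7 had a called difference between the innervated limb's change and the flank's at day 7, and NDUFA12, NDUFA2 and NDUFS4 did not.

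NDUFA5 and NDUFV3, accessory subunits of the peripheral arm, fell most at day 1. NDUFA5 fell by 0.46 ± 0.069 in the denervated limb (adjusted p = 1.31e-06, a change of −27.2%), by 0.37 ± 0.069 in the innervated limb and by 0.26 ± 0.069 in the flank. In the denervated limb it was back at −0.02 by day 3, a rise of 0.44 ± 0.069 over day 1 (adjusted p = 5.03e-06), and in the flank at 0.06. At denervated day 7 NDUFA5 was lower again, with a mean of 10.50 against 10.77 at limb day 0. The innervated limb stayed lower, with means of 10.50 at day 3 and 10.46 at day 7. NDUFA5 fell in 6 of the 9 comparisons with day 0, including day 7 of both limb series. NDUFV3 fell at day 1 by 0.45 ± 0.063 in the denervated and 0.39 ± 0.063 in the innervated limb, and was still 0.21 lower in both at day 7 (adjusted p = 0.0112 and 0.0115). 

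The core subunits did not move as a block. NDUFS1, the largest iron-sulfur subunit, fell at day 1 by 0.44 ± 0.077 in the denervated limb, 0.42 ± 0.077 in the innervated limb and 0.34 ± 0.077 in the flank (adjusted p = 1.27e-05, 2.66e-05 and 0.000527). It was still lower at day 3, by 0.32, 0.30 and 0.36, and by day 7 stood at −0.14, −0.04 and 0.04, none of them called. In the flank it rose by 0.40 ± 0.077 between days 3 and 7 (adjusted p = 0.000322). A second probe set for NDUFS1, with a mean signal of 5.95, was not called on any day, with differences between −0.08 and 0.07. NDUFV1, which binds NADH, fell on all 3 days in the flank, by 0.22, 0.31 and 0.32, and at day 7 in the limb, by 0.22 in the denervated and 0.29 in the innervated series. Its flank day 1 call was lost without flank day 0 replicate 2 or 4 or day 1 replicate 2 or 3 (adjusted p = 0.0528 to 0.154), and its denervated day 7 call without limb day 0 replicate 1, 3 or 4 or denervated day 7 replicate 2, 3 or 4 (adjusted p = 0.0586 to 0.154). NDUFS3, a core subunit near the quinone site, was the only core subunit called higher, by 0.22 ± 0.057 and 0.23 ± 0.057 at day 1 in the denervated and innervated limb (adjusted p = 0.0023 and 0.00124). NDUFS7, NDUFS8 and NDUFV2 were not called against day 0 in any of the 9 comparisons.

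A few complex I genes were called in the flank alone, without the series having been tested against each other except where stated. NDUFA10, an accessory subunit related to nucleoside kinases, fell at day 1 by 0.40 ± 0.066 (adjusted p = 5.47e-06), and its change at day 1 was 0.31 ± 0.093 higher in the innervated limb than in the flank (adjusted p = 0.0409). That difference was lost without any one of 11 of its 16 arrays (adjusted p = 0.0549 to 0.107), and kept without flank day 0 replicate 1, flank day 1 replicate 4, limb day 0 replicate 4 or innervated day 1 replicate 1 or 2. NDUFB8 rose at flank day 3 by 0.33 ± 0.085 (adjusted p = 0.00293) and was lower again by 0.36 ± 0.085 at day 7 than at day 3. NDUFA4, which carries a complex I name but has been assigned to cytochrome c oxidase, was not called in the flank. In the innervated limb it averaged 13.04 at days 1 and 7, against 13.16 at day 0, and was not called. It fell in the denervated limb at day 1 by 0.15 ± 0.052 and at day 7 by 0.22 ± 0.052 (adjusted p = 0.0209 and 0.0013). Its day 1 call was lost without denervated day 1 replicate 2 or limb day 0 replicate 2 (−0.12 and −0.13, adjusted p = 0.101 and 0.0673).

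**Figure D3:**
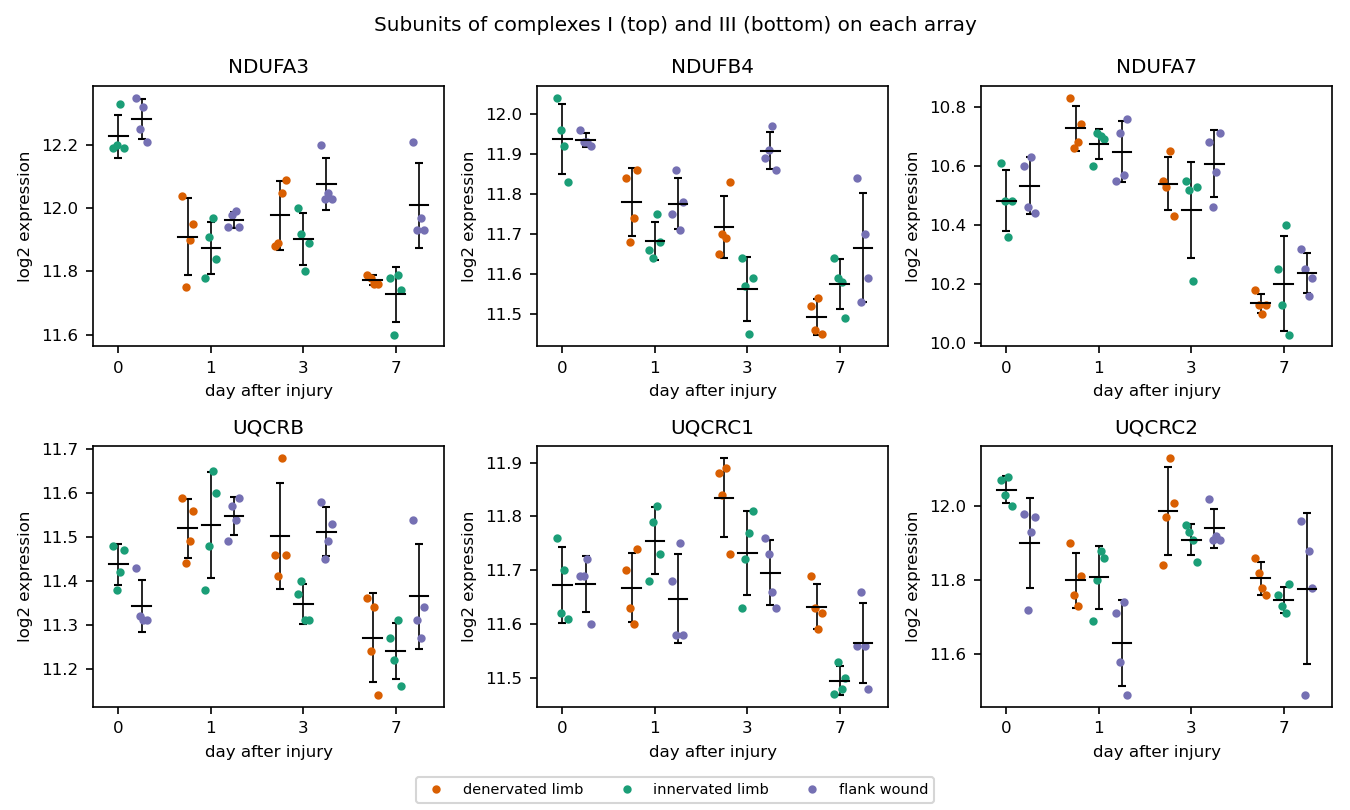
Log2 expression on each of the 44 arrays (points) with the group mean and SD (bars) for 3 subunits of complex I (top row) and 3 of complex III (bottom row), by day after injury. NDUFA3 is lowest at day 7 in the limb series, as is NDUFB4 in the denervated limb, while NDUFB4 of the innervated limb is about level at days 3 and 7 (means of 11.56 and 11.57), NDUFA7 is above day 0 at day 1 and below it at day 7, and the complex III subunits differ from one another in course.

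Complex II, succinate dehydrogenase, had catalytic subunits that fell and membrane subunits that were rarely called. SDHB, the iron-sulfur subunit, read 10.86, 10.87, 10.73 and 10.74 at denervated day 7 and 10.78, 10.81, 10.82 and 10.72 at innervated day 7, against 11.23, 11.37, 11.27 and 11.30 in uninjured limb skin. In the flank it read 10.85, 10.80, 10.87 and 10.88 at day 7, against 11.08, 11.26, 11.11 and 11.12 at day 0. In each series the day 7 arrays lay below all day 0 arrays. SDHB fell at day 7 by 0.49 ± 0.067 in the denervated limb (adjusted p = 1.95e-07, a change of −28.9%), by 0.51 ± 0.067 in the innervated limb (adjusted p = 1.15e-07, a change of −29.8%) and by 0.29 ± 0.067 in the flank (adjusted p = 0.000854).

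At day 1 SDHB read 11.26, 11.13, 11.08 and 11.07 in the denervated limb and 10.95, 10.94, 11.11 and 11.14 in the innervated limb, differences of −0.16, not called, and −0.26 (adjusted p = 0.00197). At day 3 it read 10.95, 10.80, 11.15 and 10.99 in the denervated limb and 10.97, 11.03, 10.89 and 11.03 in the innervated limb, falls of 0.32 and 0.31. Flank arrays at days 1 and 3 lay between 11.04 and 11.31, differences of 0.05 and 0.02 from day 0, and the flank fell by 0.31 ± 0.067 between days 3 and 7 (adjusted p = 0.00119). The change from day 0 was 0.31 ± 0.094 lower in the innervated limb than in the flank at day 1 and 0.33 ± 0.094 lower at day 3 (adjusted p = 0.0474 and 0.0441). These differences were lost with a replicate block (adjusted p = 0.0527 and 0.0507). The first was kept only without flank day 0 replicate 2, flank day 1 replicate 4, limb day 0 replicate 1 or innervated day 1 replicate 3 or 4, and the second only without flank day 0 replicate 2, flank day 3 replicate 4, limb day 0 replicate 1 or innervated day 3 replicate 4 (otherwise adjusted p = 0.0583 to 0.0994 and 0.054 to 0.1).

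SDHA, the flavoprotein that oxidises succinate, read 9.43, 9.61, 9.33 and 9.43 at denervated day 7 and 9.31, 9.41, 9.33 and 9.30 at innervated day 7, against 9.80, 9.76, 9.74 and 9.90 in uninjured limb skin. No day 7 limb array reached the day 0 range. It fell by 0.35 ± 0.081 in the denervated limb and by 0.46 ± 0.081 in the innervated limb (adjusted p = 0.000803 and 2.04e-05). SDHA had already fallen at innervated day 3, with 9.48, 9.47, 9.48 and 9.63, all below day 0. It was not called at day 1 in any series, nor at day 3 in the denervated limb or the flank. In the flank it read 9.57, 9.49, 9.35 and 9.52 at day 7, against 9.76, 9.69, 9.69 and 9.77 at day 0, a fall of 0.24 ± 0.081 (adjusted p = 0.0221). That call was lost without flank day 0 replicate 1 or 4 or flank day 7 replicate 3 (−0.20 to −0.23, adjusted p = 0.0528 to 0.0983), and with the muscle gene mean as a covariate (−0.19, adjusted p = 0.126).

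SDHC and SDHD, which anchor the enzyme in the inner membrane and hold the quinone site, did not vary over the 11 groups by the F test (adjusted p = 0.274 and 0.371). SDHC read 11.16, 11.18, 11.11 and 11.04 at denervated day 7 and 11.09, 11.20, 11.15 and 11.11 at innervated day 7, against 11.30, 11.14, 11.12 and 11.39 at day 0, with overlap in both cases. Its one call was flank day 3, at 11.10, 11.16, 11.11 and 11.08 against 11.48, 11.28, 11.33 and 11.20 at day 0 (−0.21 ± 0.073, adjusted p = 0.0282). SDHD read 8.77, 8.79, 8.74 and 8.60 at denervated day 7 and 8.98, 8.69, 8.68 and 8.82 at innervated day 7, against 8.75, 8.99, 8.86 and 9.17 at day 0, again with overlap. It was called at innervated day 3 only (−0.26 ± 0.098, adjusted p = 0.0466). The SDHC call was lost without flank day 0 replicate 1 or 3 or flank day 3 replicate 1, 3 or 4 (−0.16 to −0.21, adjusted p = 0.0519 to 0.138), and the SDHD call without limb day 0 replicate 2 or 4 or innervated day 3 replicate 2, 3 or 4 (−0.18 to −0.26, adjusted p = 0.0807 to 0.205). Whether the catalytic and membrane subunits differed in their change was not tested.

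**Figure D4:**
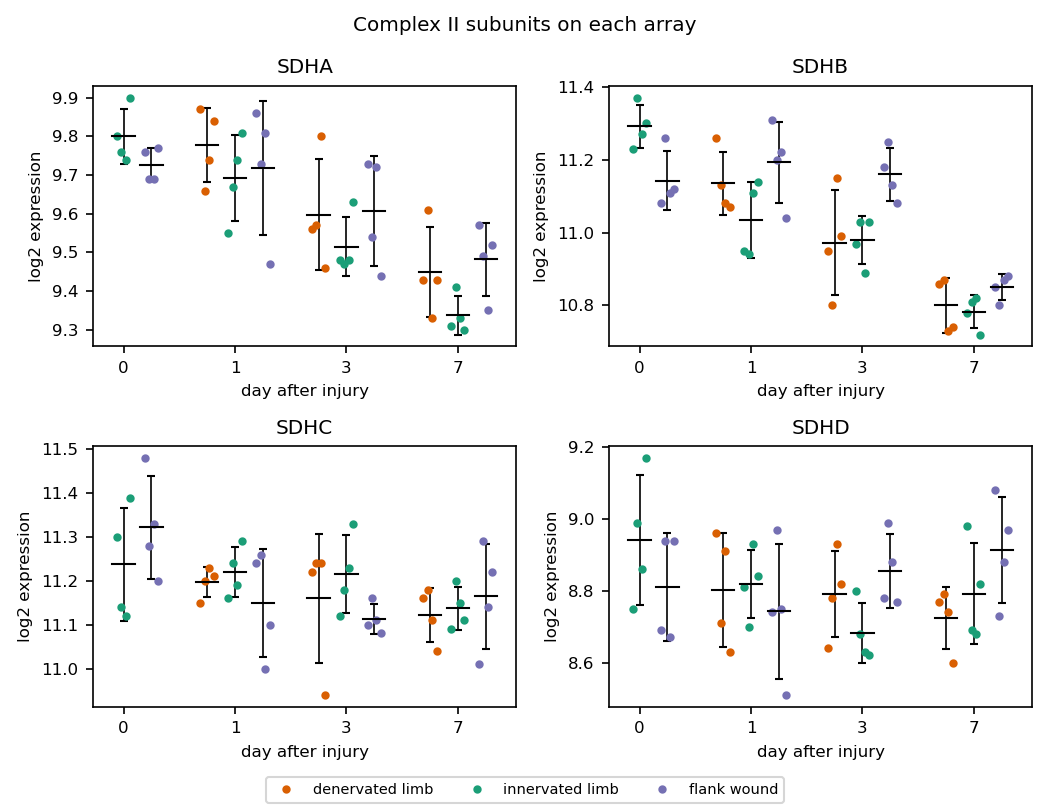
Log2 expression of the 4 succinate dehydrogenase subunits on each of the 44 arrays (points) with the group mean and SD (bars), by day after injury. SDHA and SDHB are lowest at day 7 in all 3 series, with SDHB of the flank still between 11.04 and 11.31 at days 1 and 3, while the points of SDHC and SDHD overlap between day 0 and day 7.

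In complex III, cytochrome bc1, 1 of 5 subunits fell in the denervated limb at day 7, 4 in the innervated limb and 0 in the flank, beside 13.9%, 13.8% and 12.2% of all probe sets, so that the denervated and flank counts are near the background. UQCRC2, one of a pair of core proteins, read 11.86, 11.82, 11.78 and 11.76 at denervated day 7 and 11.76, 11.73, 11.71 and 11.79 at innervated day 7, against 12.07, 12.03, 12.08 and 12.00 in uninjured limb skin. All day 7 limb arrays lay below day 0. It fell by 0.24 ± 0.074 in the denervated limb (adjusted p = 0.0126) and by 0.30 ± 0.074 in the innervated limb (adjusted p = 0.00198). It also fell at day 1 in all 3 series, by 0.24, 0.24 and 0.27, and in the flank it rose again by 0.31 ± 0.074 from day 1 to day 3 (adjusted p = 0.00141).

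UQCRC1, the other core protein, ran differently. At day 3 it read 11.88, 11.84, 11.89 and 11.73 in the denervated limb, against 11.76, 11.62, 11.70 and 11.61 at day 0, overlapping at 1 array (0.16 ± 0.054, adjusted p = 0.0226). This rise was lost without denervated day 3 replicate 1 or 3 or limb day 0 replicate 2 or 4 (0.14 to 0.15, adjusted p = 0.0689 to 0.0774). At day 7 it read 11.69, 11.63, 11.59 and 11.62 in the denervated limb, a difference of −0.04 that was not called, and 11.47, 11.53, 11.48 and 11.50 in the innervated limb, where every array lay below day 0. The innervated fall of 0.18 ± 0.054 (adjusted p = 0.0121) was lost without limb day 0 replicate 1 (−0.15, adjusted p = 0.0579).

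UQCRB, a small subunit next to the quinone-binding cytochrome b, rose in the flank at day 1, with 11.49, 11.57, 11.54 and 11.59 against 11.43, 11.32, 11.31 and 11.31 at day 0. The arrays did not overlap (0.21 ± 0.065, adjusted p = 0.0103). In the innervated limb it was lower at day 7, with 11.27, 11.22, 11.31 and 11.16 against 11.48, 11.38, 11.42 and 11.47 at day 0 (−0.20 ± 0.065, adjusted p = 0.0198), and this call was lost without limb day 0 replicate 1 or 4 or innervated day 7 replicate 4 (−0.17 to −0.19, adjusted p = 0.0506 to 0.0758). UQCRFS1, the Rieske iron-sulfur protein, fell by 0.15 ± 0.053 at innervated day 7 (adjusted p = 0.0392), a call lost in 7 of the runs that left out 1 array of day 0 or day 7. UQCRH was not called against day 0.

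In complex IV, cytochrome c oxidase, all 9 genes varied over the 11 groups by the F test, beside 60.8% of all probe sets. The share of bright probe sets that varied was not counted. At day 7, 5 fell and 0 rose in the denervated limb, 5 fell and 1 rose in the innervated limb, and 1 fell in the flank, beside 13.9%, 13.8% and 12.2% of all probe sets that fell. In the same order 13.1%, 12.8% and 11.5% of all probe sets rose. Of the bright probe sets 24.9%, 24.8% and 17.7% fell and 25.1%, 27.1% and 27.5% rose at day 7. Flank day 3 went both ways, with 3 higher and 2 lower (12.6% and 14.8% of all probe sets). Of the bright probe sets 30.9% rose and 17.4% fell there, and neither count is far from these shares. COX6A1, the non-muscle form of a regulatory subunit, fell in all 3 series at day 7, by 0.16, 0.22 and 0.25, and its flank fall of day 7 and innervated fall of day 7 held without any 1 array. The denervated call (adjusted p = 0.0404) was lost without limb day 0 replicate 1 or 3 or denervated day 7 replicate 2, 3 or 4 (adjusted p = 0.0856 to 0.128). A second COX6A1 probe set, with a mean signal of 5.78, was not called in any comparison with day 0. COX6C fell at day 1 in the limb: it read 12.29, 12.03, 12.20 and 12.29 in the denervated limb and 12.03, 12.13, 12.19 and 12.09 in the innervated limb, against 12.48, 12.41, 12.40 and 12.37 at day 0. Every day 1 limb array lay below day 0. The falls were 0.21 ± 0.065 in the denervated limb (adjusted p = 0.009) and 0.30 ± 0.065 in the innervated limb (adjusted p = 0.000219), and by day 3 COX6C was back at −0.03 and −0.04. The denervated call was lost without denervated day 1 replicate 2 (−0.15, adjusted p = 0.0743).

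COX4I1, the general form of the regulatory subunit 4, fell in the limb at day 7 and rose in the flank at day 3. It also fell at innervated day 1 (−0.21 ± 0.073, adjusted p = 0.018), and was not called at denervated day 1 (adjusted p = 0.971). In the limb it read 9.63, 9.50, 9.55 and 9.62 at denervated day 7 and 9.67, 9.57, 9.64 and 9.61 at innervated day 7, against 9.97, 9.85, 9.74 and 9.75 at day 0. In the flank it read 9.95, 9.71, 9.86 and 9.83 at day 3, against 9.36, 9.51, 9.59 and 9.53 at day 0. Neither set of arrays overlapped its day 0 group. The falls at day 7 were 0.25 ± 0.073 in the denervated limb (adjusted p = 0.00711) and 0.21 ± 0.073 in the innervated limb (adjusted p = 0.0319), and the flank rose by 0.34 ± 0.073 at day 3 (adjusted p = 0.000404). The innervated day 7 call was lost without limb day 0 replicate 1 or 2 or day 7 replicate 2, 3 or 4 (−0.16 to −0.21, adjusted p = 0.0504 to 0.142). A second COX4I1 probe set, with a mean signal of 9.38, was not called in any comparison with day 0, and read −0.18 where the first read 0.34 (adjusted p = 0.116). With the mean of both probe sets the flank difference was 0.08 (adjusted p = 0.231), and the innervated day 7 difference −0.09 (adjusted p = 0.177), while the denervated one stayed called (−0.14, adjusted p = 0.0337).

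COX7A2L, a relative of subunit 7A2 that joins complexes III and IV into supercomplexes in mammals, also had 2 probe sets that differed in size. The brighter one fell by 0.26 ± 0.054 at innervated day 7 (adjusted p = 0.000286) and differed by −0.13 at denervated day 7 (adjusted p = 0.0617) and 0.01 at flank day 7. The other, with a mean signal of 10.15, had group means of 9.61 at denervated and 9.42 at innervated day 7, against 10.71 at limb day 0, and of 9.91 at flank day 7, against 10.67 at flank day 0. It fell by 1.11 ± 0.108, 1.29 ± 0.108 and 0.76 ± 0.108 (adjusted p = 1.48e-10, 4.73e-12 and 7.55e-07). This second probe set was looked at after its values were seen. Which transcripts either probe set reads is not given in the sources used here.

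COX4I2, the alternative form of subunit 4, which in mammals is found mainly in lung and rises under low oxygen, had the widest range of group means among the 51 genes (2.48). At day 1 it read 8, 7.99, 7.88 and 8.37 in the denervated limb and 8.27, 8.65, 9.68 and 9.86 in the innervated limb, against 7.29, 7.23, 7.96 and 7.95 in uninjured limb skin. Innervated day 1 lay wholly above day 0, and denervated day 1 overlapped it. The rise was 1.51 ± 0.383 in the innervated limb (adjusted p = 0.00166, 2.84-fold), and the difference of 0.45 in the denervated limb was not called. In the flank it went the other way, with 7.00, 6.54, 6.58 and 7.09 at day 1 and 6.73, 7.29, 6.91 and 6.97 at day 3, against 7.81, 8.97, 9.93 and 10.44 at day 0. No flank array of day 1 or 3 reached the lowest at day 0, and the falls were −2.49 ± 0.383 and −2.31 ± 0.383 (adjusted p = 1.61e-06 and 1.17e-05). Neither change lasted through the next day sampled in its series. Flank day 7 read 8.86, 8.65, 8 and 8.35, overlapping flank day 0, and the difference of −0.82 was not called. Innervated day 3 read 7.20, 7.71, 7.41 and 6.97, overlapping limb day 0, and was not called against it.

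Muscle RNA varied between arrays too, and the cause of the COX4I2 differences was not tested. The mean of the 26 muscle genes was 7.10, 6.44, 9.96 and 10.44 on the innervated day 1 arrays, in the order of replicates 1 to 4 used above, and 6.57, 8.28, 8.60 and 9.35 on the flank day 0 arrays. On the denervated day 1 arrays it was 6.99, 8.71, 8.73 and 9.18, and COX4I2 was at most 8.37 there. Innervated day 1 replicate 2 had a COX4I2 of 8.65 and a muscle mean of 6.44. On the denervated day 3 arrays, where COX4I2 read 7.58, 7.40, 9.14 and 7.95, the muscle mean was 6.32, 4.88, 10.12 and 4.93. When the 3 arrays richest in muscle RNA were left out, the innervated day 1 difference was 0.85 (adjusted p = 0.117), and it was also 0.85 with the muscle mean as a covariate (adjusted p = 0.0381). With that covariate the flank differences were −2.10 at day 1 and −1.72 at day 3, both still called. At day 7 COX4I2 read 8.99, 9.05, 8 and 8.31 in the denervated limb and 8.28, 8.79, 8.93 and 8.89 in the innervated limb, while the muscle mean lay at or below 4.99 on these arrays. Every array of both groups lay above day 0. The innervated difference was 1.12 ± 0.383 (adjusted p = 0.0262) and the denervated one 0.98 ± 0.383, which was not called. The innervated call was lost without limb day 0 replicate 1 or 2 or day 7 replicate 2, 3 or 4 (0.99 to 1.09, adjusted p = 0.0547 to 0.0823).

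**Figure D5:**
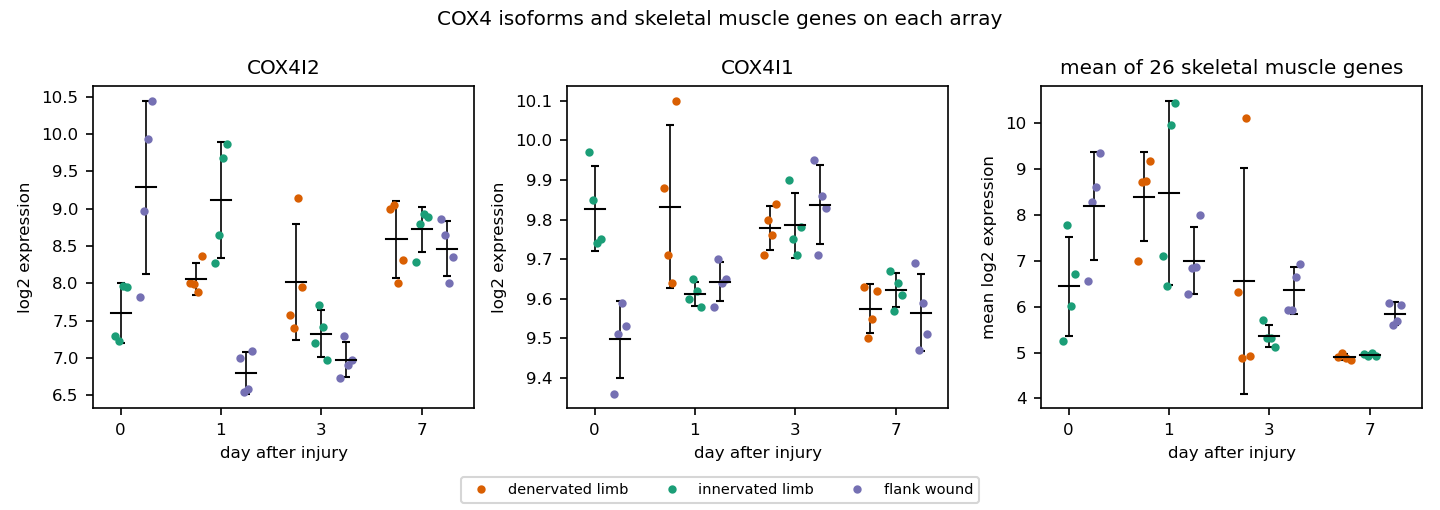
Log2 expression of COX4I2 (left) and COX4I1 (middle) and the mean of 26 skeletal muscle genes (right) on each of the 44 arrays (points) with the group mean and SD (bars), by day after injury. COX4I2 is above 9 on innervated day 1, denervated day 3 and flank day 0 arrays with muscle means of at least 8.60, is at most 8.37 on denervated day 1 arrays with muscle means up to 9.18, and lies above day 0 at day 7 in the limb series, up to 9.05, where the muscle mean is at most 4.99.

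Denervation left no called difference in these genes. At days 1, 3 and 7, 0 of the 51 genes differed between denervated and innervated limb in the limma fit, where 0.0200%, 0.265% and 1.70% of all probe sets were called in either direction. Of the bright probe sets 0%, 0.889% and 3.91% were called. A count of 0 among 51 genes is near such low shares and does not set these genes apart. Before adjustment 4, 7 and 2 of the 51 genes had a p under 0.05 at days 1, 3 and 7, beside 1584, 1329 and 2285 of all 20035 probe sets. Of the 51 genes 0 were called under any alternative run. The smallest adjusted p was 0.341 for COX4I1 at day 1, 0.185 for NDUFA5 at day 3 and 0.249 for UQCRC1 at day 7. For the 44 genes other than COX4I2 with mean signals of at least 8, the 95% intervals of the difference lay within −0.23 and 0.37 at day 1, −0.20 and 0.39 at day 3 and −0.41 and 0.28 at day 7. For COX4I2 at day 1 the difference was −1.06 with an interval of −1.83 to −0.28 (adjusted p = 0.425). At day 3, NDUFA5 averaged 10.75 ± 0.11 in the denervated limb and 10.50 ± 0.05 in the innervated limb (SD, n = 4 arrays each), a difference of 0.25 with an interval of 0.11 to 0.39.

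Steps between successive days were compared within each series. From day 1 to day 3, 8 genes rose and 1 fell in the denervated limb (15.7% and 11.7% of all probe sets), 1 rose and 5 fell in the innervated limb (15.8% and 10.5%), and 8 rose and 0 fell in the flank (14.1% and 12.1%). From day 3 to day 7, 0 rose and 12 fell in the denervated limb (3.85% and 2.64%), 2 rose and 2 fell in the innervated limb (1.83% and 1.69%), and 2 rose and 8 fell in the flank (7.81% and 4.66%). Over that step 9.87%, 5.33% and 13.1% of the bright probe sets fell in the denervated limb, innervated limb and flank. In the same order 6.76%, 3.47% and 9.78% of them rose. Of the subunits 23.5%, 3.92% and 15.7% fell, so the innervated and flank counts of falls are near the bright shares. The shares were not tested against each other. Instead of 12, 6 fell in the denervated limb without denervated day 3 replicate 3, the array with the muscle mean of 10.12. The denervated counts were 2 higher and 2 lower from day 1 to day 3 and 6 lower from day 3 to day 7 when the 3 arrays of highest muscle signal were left out. A difference between the series in these steps was not tested.

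Limb and flank skin already differed at day 0 in 4 of the 51 genes (4.35% of all probe sets in either direction). Of the bright probe sets 7.91% were called, and the count of 4 is near that share. COX4I1 was 0.33 ± 0.073 higher in limb skin (adjusted p = 0.00465), NDUFB7 0.30 ± 0.073 higher (adjusted p = 0.012), and COX7A2L 0.20 ± 0.054 higher (adjusted p = 0.0243). COX4I2 averaged 7.61 ± 0.40 in limb skin and 9.29 ± 1.16 in flank skin (SD, n = 4 arrays each), a difference of −1.68 ± 0.383 (adjusted p = 0.00631). The NDUFB7 call was lost without limb day 0 replicate 3 (adjusted p = 0.0512), and the COX7A2L call without limb day 0 replicate 1 or 3 or flank day 0 replicate 1, 2 or 4 (adjusted p = 0.0516 to 0.084). With the mean of both probe sets COX4I1 differed by 0.11 (adjusted p = 0.235). The COX4I2 call was lost without flank day 0 replicate 4 (−1.30, adjusted p = 0.0578), the array with the highest muscle mean of its group. The change from day 0 differed between innervated limb and flank in 5 genes at day 1, 6 at day 3 and 4 at day 7 (5.25%, 3.15% and 3.64% of all probe sets). Of the bright probe sets 9.07%, 4.71% and 7.02% were called, and the counts at days 1 and 7 are near these shares. NDUFB7 was among them on all 3 days, with limb changes 0.34, 0.40 and 0.40 lower than those of the flank (SE 0.103, adjusted p = 0.0449, 0.0238 and 0.0187). The day 1 call was kept only without flank day 0 replicate 1, flank day 1 replicate 1 or 4 or limb day 0 replicate 4 (otherwise adjusted p = 0.052 to 0.0908). The day 3 call was lost without limb day 0 replicate 3, innervated day 3 replicate 3 or flank day 3 replicate 1, and the day 7 call without limb day 0 replicate 3, innervated day 7 replicate 2 or flank day 7 replicate 1 (adjusted p = 0.0524 to 0.0566 and 0.0526 to 0.0624). NDUFB4 at day 3 averaged 11.56 ± 0.08 in the innervated limb and 11.91 ± 0.05 in the flank (SD, n = 4 arrays each), against 11.94 at day 0 in both, and its change was 0.35 ± 0.085 lower in the limb (adjusted p = 0.016). NDUFA5 at day 7 changed by −0.31 in the innervated limb and 0.04 in the flank, a difference of −0.34 ± 0.098 (adjusted p = 0.0394), kept only without flank day 0 replicate 4, flank day 7 replicate 2 or 3, limb day 0 replicate 1 or innervated day 7 replicate 1 (otherwise adjusted p = 0.0512 to 0.113). NDUFB7, COX4I1, COX7A2L and COX4I2 differed at day 0 too, so their differences of change include that starting gap.

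Genes around the chain were counted from lists of named genes, with the denervated limb, the innervated limb and the flank given in that order. Of 18 named enzymes of the citric acid cycle and pyruvate dehydrogenase, 16 were measured. At day 7, 8 fell and 1 rose in the denervated limb, 9 fell and 0 rose in the innervated limb, and 10 fell and 0 rose in the flank, where 13.9%, 13.8% and 12.2% of all probe sets fell. CS, citrate synthase, fell in all 9 comparisons, with day 7 differences of −0.44, −0.46 and −0.41. SUCLG2, a succinyl-CoA ligase subunit, differed at day 7 by −0.62, −0.41 and −0.89, and FH, fumarase, which takes the product of complex II, by −0.34, −0.51 and −0.25, all of them called. IDH2 was the member called higher at denervated day 7 (0.31).

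Of 49 named assembly factors 26 were measured. At day 1, 8 fell and 2 rose in the denervated limb, 9 fell and 1 rose in the innervated limb, and 9 fell and 2 rose in the flank, where 20.1%, 21.2% and 21.3% of all probe sets fell and 14.1%, 14.7% and 20.0% rose. TTC19, needed for complex III assembly in humans, fell at day 1 by 1.00, 0.99 and 0.91, and NUBPL, an iron-sulfur assembly factor for complex I, by 0.75, 0.80 and 0.34. LRPPRC, which stabilises mitochondrial mRNAs, fell at day 1 by 0.80, 0.99 and 1.79. FASTKD2, a mitochondrial RNA-binding protein, rose by 0.59, 0.63 and 0.37.

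Of 12 named electron carriers and partners 7 were measured. CYCS, cytochrome c, rose at day 1 by 0.73 in the denervated limb and 0.82 in the innervated limb, and fell by 0.84 at flank day 7. CYC1, cytochrome c1 of complex III, which the name rule does not cover, rose with it in the limb at day 1 by 0.34 and 0.38. NDUFAB1, the acyl carrier protein that is also a complex I subunit and is not covered by the rule, fell in 8 of 9 comparisons, by 0.14 to 0.24. HIGD1A, a hypoxia-induced partner of complex IV in mammals, fell at day 7, with differences of −1.38, −1 and −1.54.

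Of 17 named regulators of mitochondrial genes 11 were measured. PPRC1, a relative of the coactivator PGC-1α, rose at day 1 by 1.29 in the denervated limb, 1.5 in the innervated limb and 1.96 in the flank. TFAM, the packaging and transcription factor of mitochondrial DNA, fell at day 1 by 0.37, 0.41 and 0.50, and at day 7 was higher by 0.20, 0.33 and 0.20. GABPA, a subunit of nuclear respiratory factor 2, fell at day 1 by 0.52, 0.62 and 0.62, and TFB1M fell on all days in all 3 series.

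Of 9 named carriers and pores 7 were measured. UCP2, an uncoupling protein relative, fell at day 1 by 1.02, 1.23 and 1.41 and rose at day 7 by 1.10, 0.61 and 0.51. SLC25A4, the muscle form of the ADP/ATP carrier, rose at day 1 by 2.56 in the denervated limb and 2.63 in the innervated limb. The muscle mean lay between 6.99 and 9.18 on denervated and between 6.44 and 10.44 on innervated day 1 arrays, against 5.25 to 7.79 at day 0. The part of muscle RNA in this rise was not tested. SLC25A5, the form of other tissues, and the phosphate carrier SLC25A3 were not called against day 0, with differences between −0.09 and 0.04, and are named after their values were seen. VDAC1, the main pore of the outer membrane, fell at day 7 by 0.29 in the denervated limb and 0.16 in the innervated limb.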

How the data were processed

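The log2 expression values were deposited by the authors, who measured RNA on an Affymetrix array of this species. RMA and limma are listed in the submitters' processing notes, with no version and no role. No further normalization or filter was applied. Of 20080 probe sets 45 are controls, and gene symbols come from GEO's annotation of the platform, which can be old. The other 20035 probe sets entered a linear model in limma 3.58.1 (R 4.3.3) that gave each of the 11 groups its own mean, with spread moderated by eBayes and 33 residual df, and 22 comparisons were adjusted separately by Benjamini-Hochberg. Tests are two-sided. The fit was tested on simulated data. The number of arrays limits the precision.

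Genes and lists were chosen with earlier results of these data known. Values of single arrays are given for up to 3 members per complex with the smallest adjusted p of the F test and for the SDH genes and COX4I2. Any member could be named, including up to 5 of the largest called differences in each direction of a comparison, and of the other lists up to 4 genes with the smallest adjusted p in a comparison. Alternatives were a replicate block, dropping the dimmest 25% of probe sets, fitting only the groups compared, array weights, quantile normalization, the muscle mean as a covariate, the mean of all probe sets of a gene, and leaving out arrays.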

Additional observations from a re-analysis of the deposited data

Results flagged for a closer look

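In 9 of 187 groups of 4 arrays tested (4.81%, where chance alone gives about 1 in 20), 1 array stood apart from the other 3. These were NDUFA3 on innervated day 0 replicate 3 (12.33), flank day 3 replicate 1 (12.20) and flank day 7 replicate 1 (12.21), all above the rest of their groups. NDUFA7 was low on innervated day 3 replicate 3 (10.21) and SDHA high on innervated day 3 replicate 4 (9.63). SDHC was low on denervated day 3 replicate 4 (10.94), UQCRB high on flank day 0 replicate 1 (11.43) and UQCRC2 high on flank day 3 replicate 1 (12.02). The mean of complex III, each gene taken relative to its mean over all arrays, was high on innervated day 1 replicate 3 (0.137).

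The change from day 0 differed between innervated limb and flank in 15 cases, by a limma test of the difference itself. At day 1 these were COX4I2 (3.99, adjusted p = 1.02e-05), NDUFA10 (0.31), COX4I1 (−0.36), NDUFB7 (−0.34) and SDHB (−0.31). At day 3 they were COX4I2 (2.03), COX4I1 (−0.38), NDUFB7 (−0.40), NDUFB4 (−0.35), SDHB (−0.33) and COX7A2L (−0.26, adjusted p = 0.0499). The second COX4I1 probe set went the other way. It differed from day 0 by 0.07 in the innervated limb and −0.2 in the flank at day 1, and by −0.03 and −0.18 at day 3. Its changes were not called, and their difference between limb and flank was not tested. At day 7 the cases were COX4I2 (1.94), NDUFB7 (−0.40), NDUFA5 (−0.34) and COX7A2L (−0.27). Without innervated day 7 replicate 2, 0 of the day 7 differences were called. The COX4I2 differences start from flank day 0 arrays with muscle means of 6.57 to 9.35.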

How the results depend on the processing

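No called value changed direction under any alternative. Of 206 called values, 197 stayed called with a replicate block, 206 without the dimmest 25% of probe sets, 196 with array weights, 185 after quantile normalization, 187 with the mean of all probe sets, 169 with the muscle mean as a covariate, 174 without the 3 arrays of highest muscle signal and 81 when only the groups compared were fitted, which leaves fewer arrays to estimate the spread. Same-numbered arrays of different groups correlated over 0.1 in 61 of 220 pairs (−0.34 to 0.45, median 0.038), and differently numbered arrays in 102 of 660 (median −0.012), so the numbers were not taken to pair the samples, although same-numbered pairs were somewhat more alike. Of the 206, 113 held without any 1 array.

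When only the groups compared were fitted, the counts of genes called against day 0 at days 1, 3 and 7 were 5, 2 and 13 in the denervated limb (16, 9 and 20 in the full fit), 11, 8 and 14 in the innervated limb (19, 13 and 26) and 3, 5 and 5 in the flank (13, 12 and 10). From day 1 to 3 and from day 3 to 7 they were 3 and 1 in the denervated limb (9 and 12), 1 and 1 in the innervated limb (6 and 4) and 3 and 6 in the flank (8 and 10). For limb against flank at day 0 the count was 0 (4), and for differences of change at days 1, 3 and 7 it was 1, 1 and 0 (5, 6 and 4). The day 1 count of differences of change was 3 with array weights, 2 with the muscle covariate and 3 without the 3 muscle-rich arrays. Limb against flank at day 0 gave 2 with the mean of all probe sets. Without the 3 muscle-rich arrays the denervated counts were 4 from day 1 to 3 and 6 from day 3 to 7. The cause was not tested.

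Leaving out 1 array at a time, the counts against day 0 at days 1, 3 and 7 ranged over 10 to 17, 7 to 9 and 16 to 21 in the denervated limb, 14 to 20, 10 to 13 and 18 to 26 in the innervated limb and 10 to 14, 7 to 10 and 7 to 9 in the flank. Successive days ranged over 4 to 10 and 6 to 12 (denervated), 4 to 6 and 1 to 3 (innervated) and 4 to 10 and 8 to 12 (flank). Denervated against innervated stayed at 0, limb against flank at day 0 ranged over 2 to 4, differences of change over 1 to 6, 1 to 6 and 0 to 4, and genes varying over the 11 groups over 33 to 37. Single arrays moved a count by over 1.5 times as follows. Denervated day 1 gave 10 without limb day 0 replicate 3 or denervated day 1 replicate 2, and flank day 3 gave 7 without flank day 3 replicate 4. Denervated day 1 to 3 gave 4 and 5 without denervated day 1 replicates 2 and 3, and day 3 to 7 gave 6 and 7 without denervated day 3 replicate 3 and day 7 replicate 4. Flank day 1 to 3 gave 4 or 5 without flank day 1 replicate 1 or 3 or day 3 replicate 1, 3 or 4. Innervated day 3 to 7 gave 1 or 2 without day 3 replicate 1, 2 or 4 or any day 7 replicate. Limb against flank at day 0 gave 2 without flank day 0 replicate 4 or limb day 0 replicate 3. Differences of change at day 1 fell to 1 to 3 without any array but replicate 4 of limb day 0 and of flank day 1. At day 3 they fell to 1 to 3 without flank day 0 replicate 1 or 3, limb day 0 or day 3 replicate 2 or 3, or flank day 3 replicate 1 or 3. At day 7 they fell to 0 to 2 without any array but replicate 4 of limb day 0, replicate 1 of innervated day 7 and replicate 2 of flank day 7.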
